A study of Mus musculus with 8 samples.

Results

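The genes described here encode the machinery of mitosis: kinases and cyclins that start it, the spindle and its motors, kinetochores, condensin, the spindle checkpoint and the proteins of cytokinesis. A list of 40 such genes was matched by symbol, current or earlier, to the platform annotation, and where a gene had several probe sets the brightest on average was read. In this way 39 of the 40 were measured, among 12394 genes in all, and cyclin B1 (Ccnb1) was not analysed here. The measured genes fall into 8 roles: 6 mitotic entry kinases and cyclins, 5 spindle checkpoint genes, 2 partners of the anaphase-promoting complex, 2 chromosomal passengers, 3 centromere and kinetochore genes, 7 chromosome structure genes, 8 spindle and motor genes and 6 cytokinesis genes.

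The study used female C57BL/6 mice aged 6 to 8 weeks that received corn oil alone or the dioxin TCDD (2,3,7,8-tetrachlorodibenzo-p-dioxin) at 10 µg/kg in corn oil, into the peritoneum. After 5 days FITC, a dye that labels cells of the thymus in the living mouse, was injected. CD4-CD8- (double-negative) cells were sorted 24 h after that, from the thymus, called thymocytes, or from the spleen, called thymus emigrants. There were 2 arrays of amplified RNA in each of 4 groups, which are oil thymocytes, TCDD thymocytes, oil emigrants and TCDD emigrants, and their number limits the precision of every value. The arrays of a group are numbered 1 and 2, and pairs of values are always given in that order. Neither the mice or pools behind each array nor any use of FITC in the sort are given, so every p-value reflects the spread between these particular samples alone, and that spread may be technical.

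Several labels conflict. Groups follow the sample titles, but the Treatment field of emigrants oil 1 names TCDD, at 10 nM, and that of emigrants oil 2 reads Dioxane 2. The Tissue field of emigrants oil 2 and of emigrants TCDD 1 reads thymus, and the descriptions of the TCDD thymocyte arrays speak of corn oil alone. Emigrants oil 2 also stood apart in Rag1, a recombinase gene of immature lymphocytes, at 9.81 on the log2 scale against 3.75 to 5.10 on the other emigrant arrays and 9.33 to 10.21 on the thymocyte arrays. For comparisons that use the oil emigrants, the median of the 39 and most named mitotic genes are therefore also given without single oil emigrant arrays. Emigrants oil 1 and then emigrants oil 2 are left out, 1 at a time and in that order. For the TCDD difference in emigrants minus that in thymocytes, only the median is so given. Values are log2 levels from robust multi-array average (RMA) normalization. A difference of 1 is a 2-fold difference, each array has a median near 4.8 to 4.9, and levels of different genes are not compared since probe sets differ in brightness. Cells of both sources carried T-lineage transcripts: Cd3e, of the T cell receptor complex, lay between 8.09 and 8.91 on all 8 arrays. Cd4 lay at 4.53 to 5.31, near the array medians. Cd8a lay at 5.15 and 6.66 in the oil thymocytes, 5.05 and 7.14 in the TCDD thymocytes, 4.57 and 5.84 in the oil emigrants and 6.18 and 6.24 in the TCDD emigrants, so that it was above the array median on all arrays but emigrants oil 1, against the CD8- label. Cd8b1 was above the median on thymocytes oil 2 (5.10), thymocytes TCDD 2 (5.75) and emigrants TCDD 1 (5.04). The thymocyte arrays had Ptcra, the pre-T-cell receptor alpha chain, at 8.83 to 9.45, and the emigrant arrays at 5.08 to 7.00.

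A cell enters mitosis when Cdk1, bound to cyclin A or B, phosphorylates proteins that condense the chromosomes and build the spindle. The checkpoint proteins Bub1, BubR1, Bub3 and Mad2 then hold back Cdc20, the activator of the anaphase-promoting complex, until every kinetochore is attached, and its release lets the sisters part and the cell divide. Messenger RNAs of these genes are known to accumulate from S phase to mitosis in cycling cells and to be low in resting cells. In the thymus, double-negative thymocytes are known for a burst of division after they make a pre-T-cell receptor, and TCDD, which activates the aryl hydrocarbon receptor, is known for shrinking the thymus.

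Promoters of this class are known for pairs of CCAAT boxes, bound by NF-Y, and for a cell cycle homology region (CHR), an element bound by the DREAM and MuvB complexes that is usually close to the transcription start. RefSeq promoter windows (build GRCm38.p6, 250 bases before to 50 bases after a start) were given for 34 of the 40 listed genes, Ccnb1 among them. The letters CCAAT, or ATTGG on the other strand, were in 30 of their 37 windows (81.1%), against 38.2% of the 21263 windows of protein-coding genes. The CHR letters, TTTGAA or its reverse TTCAAA and the self-reverse TTCGAA, were in 30 of 37 windows (81.1%), against 17.6% of all windows. Both were in 27 windows (73.0%), against 7.11% of all windows. An E2F-type motif, TTCCCGC or its reverse GCGGGAA, was in 1 of the 37 windows (2.70%, against 5.95% of all), that of Ncapg2, and no matches of different motifs shared a base. These matches are descriptions of the letters, not of binding.

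The 150 bases upstream of the start are shown for 5 genes, 1 from each role whose brightest gene with CHR letters in its window has a whole match upstream of the start (that of Prc1 runs across its start), to show how closely the elements sit to one another and to the start. Each is written 5′ to 3′ on the strand of the gene, with CCAAT-box and CHR letters in capitals. They belong to Cdk1 (chr10:69352913-69353062, minus strand), Bub3 (chr7:131560220-131560369, plus strand), Cdc20 (chr4:118437344-118437493, minus strand), Top2a (chr11:99024190-99024339, minus strand) and Kif22 (chr7:127042421-127042570, minus strand), and none overlapped another gene of the RefSeq table.
Cdk1: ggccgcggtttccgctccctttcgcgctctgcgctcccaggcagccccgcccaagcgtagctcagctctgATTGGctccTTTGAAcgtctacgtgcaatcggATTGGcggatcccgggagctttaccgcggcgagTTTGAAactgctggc
Bub3: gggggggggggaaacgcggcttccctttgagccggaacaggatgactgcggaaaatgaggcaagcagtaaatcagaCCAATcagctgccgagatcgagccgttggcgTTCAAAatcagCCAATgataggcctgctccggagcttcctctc
Cdc20: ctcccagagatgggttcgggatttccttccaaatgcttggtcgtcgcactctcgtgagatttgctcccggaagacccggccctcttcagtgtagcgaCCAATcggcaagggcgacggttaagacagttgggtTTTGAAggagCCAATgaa
Top2a: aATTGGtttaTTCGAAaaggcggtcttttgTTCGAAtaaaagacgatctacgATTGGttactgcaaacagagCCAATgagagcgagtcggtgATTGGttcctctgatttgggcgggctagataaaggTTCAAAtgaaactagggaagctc
Kif22: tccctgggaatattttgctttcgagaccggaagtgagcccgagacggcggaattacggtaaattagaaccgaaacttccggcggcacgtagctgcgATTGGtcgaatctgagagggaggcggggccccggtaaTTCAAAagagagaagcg

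In these stretches Cdk1 carries 2 CCAAT boxes and 2 CHR matches, and Top2a 4 CCAAT boxes and 3 CHR matches. Bub3 and Cdc20 each carry 2 CCAAT boxes and 1 CHR match, and Kif22 has 1 of each. Counting 1 window a gene, 24 of the 34 genes had CHR letters that start within 50 bases of the transcription start. The share of all genes with CHR letters so placed was not counted, so this position is not shown to be particular to these genes.

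**Figure D1:**
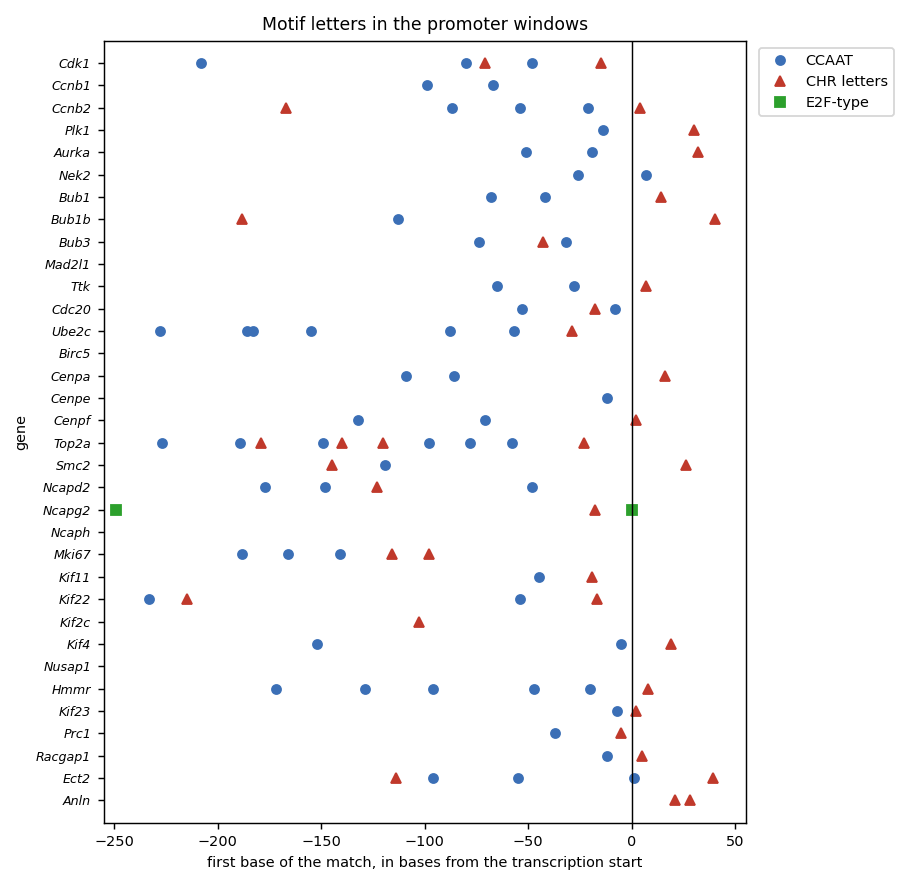
First base of each match to CCAAT (circles), CHR letters (triangles) and the E2F-type motif (squares) in the most upstream RefSeq window of 34 mitosis and spindle genes, in bases from the transcription start (0 is the first transcribed base). CCAAT boxes lie mostly before the start, as do most bases of each window. The CHR letters start within 50 bases of the start in 24 genes. Neither position was counted for all genes. Birc5, Mad2l1, Ncaph and Nusap1 have no match.

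Most of these genes were well represented on the arrays: 35 of the 39 lay above the array median on all 8 arrays. Ttk and Anln did so on 7, while Cenpe and Kif20a did so on none, so their levels were not shown to be above background and their differences are given without a fold. The genes also varied more between arrays of the same group than most genes did. The residual SD had a median of 0.579 (log2) over the 39, against 0.223 over all genes and 0.317 over genes of above-median brightness, and 36 of the 39 exceeded the latter value. Their median level was 8.04 and 7.14 in the oil thymocytes and 7.65 and 7.04 in the TCDD thymocytes. It was 6.08 and 7.26 in the oil emigrants and 6.51 and 6.22 in the TCDD emigrants. Emigrants oil 2 thus lay among the thymocyte arrays in this median, and the other 3 emigrant arrays lay below all 4 of them.

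**Figure D2:**
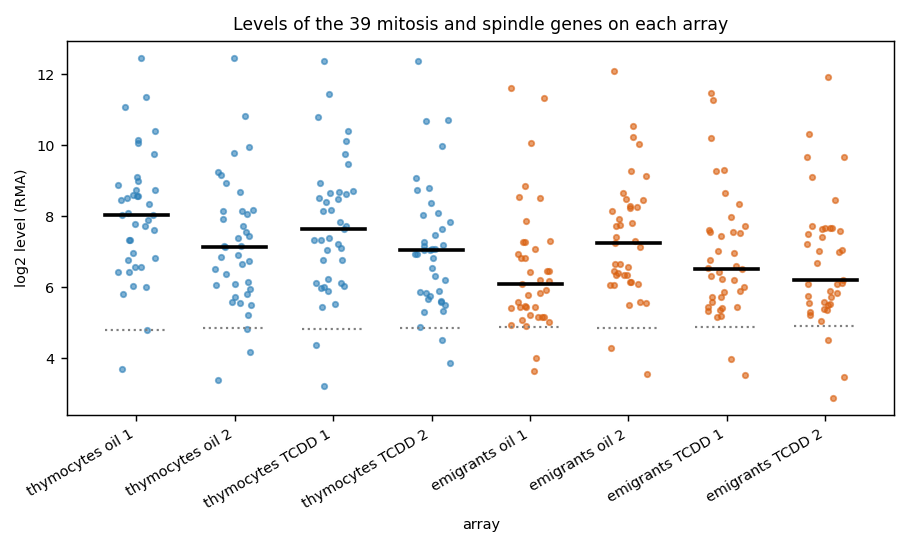
Log2 levels (RMA) of the 39 measured mitosis and spindle genes, 1 point a gene, on each of the 8 arrays, with thymocytes in blue and emigrants in orange. Black bars are the medians of these genes, from 6.08 on emigrants oil 1 to 8.04 on thymocytes oil 1, and dotted lines are the medians of each whole array.

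The first comparison asked how the mitotic genes of splenic emigrants differ from those of thymocytes. Under oil, 35 of the 39 genes had a lower mean in the emigrants (89.7%, against 49.6% of all genes), with a median difference of -0.68 on the log2 scale and 0.00 over all genes. Under TCDD, 37 of 39 had a lower mean (94.9%, against 42.8% of all genes), with a median of -0.58 and 0.04 over all genes. None of the 39 passed the limma test at an adjusted p of 0.05 under either treatment, nor did any other gene (0% called). At an unadjusted limma p under 0.05, 9 genes were lower in emigrants under oil (23.1%, against 5.09% of all genes) and 5 under TCDD (12.8%, against 4.45%), and none was higher, against 4.48% and 3.81% of all genes. In either direction 9.57% and 8.25% of all genes had such a p. In sorted cells in bulk, fewer cycling cells, less of these RNAs per cell and a different mix of cells cannot be told apart.

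Both arrays of the emigrants lay below both arrays of the thymocytes for 14 genes under oil (35.9%, against 19.6% of all genes) and for 19 under TCDD (48.7%, against 15.5%), and none was higher without overlap, against 19.8% and 22.1% of all genes. These sets, like the others below that are named for a count, were picked after their values were seen. For 12 genes this held under both treatments: Cdk1, Ccnb2, Plk1, Aurka, Bub1b, Mad2l1, Cdc20, Ube2c, Aurkb, Ncapd2, Stmn1 and Ect2. All 4 thymocyte arrays lay above all 4 emigrant arrays for 9 of the 39 (23.1%, against 6.04% of all genes), which are those 12 without Plk1, Aurka and Ncapd2. The comparisons under oil and under TCDD share no array.

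**Figure D3:**
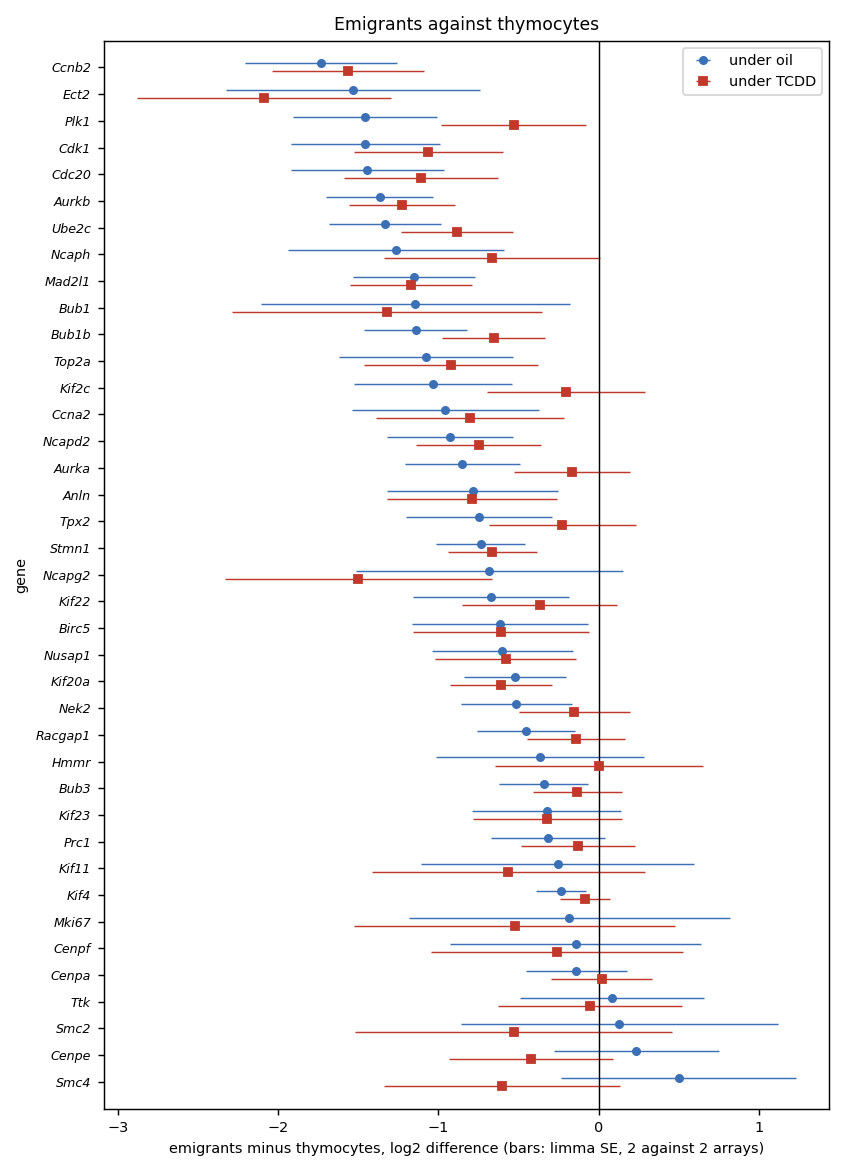
Log2 difference of emigrants minus thymocytes for each of the 39 genes, ordered by the difference under oil (circles) with the difference under TCDD beside it (squares); bars are limma standard errors, 2 arrays against 2. Most points lie left of 0, with medians of -0.68 under oil and -0.58 under TCDD, and Ccnb2 and Ect2 lie farthest left.

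Among the entry kinases and cyclins all 6 had a lower mean in emigrants under both treatments, with median differences of -1.21 under oil and -0.67 under TCDD. Under oil that median became -0.62 and -1.73 without emigrants oil 1 and oil 2 in turn. Cdk1, the kinase that starts mitosis, lay at 9.10 and 9.25 in the oil thymocytes, 8.62 and 8.80 in the TCDD thymocytes, 6.93 and 8.50 in the oil emigrants, and 7.72 and 7.57 in the TCDD emigrants. Its highest emigrant level, 8.50 on emigrants oil 2, was just under its lowest thymocyte level, so all thymocyte arrays were above all emigrant arrays. The difference was -1.46 under oil (2.75-fold lower, SE 0.46, limma adjusted p = 0.382) and -1.06 under TCDD (SE 0.46, adjusted p = 0.625), and the one under oil was -0.67 and -2.24 without emigrants oil 1 and oil 2 in turn.

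Cyclin B2 (Ccnb2), a partner of Cdk1, lay at 8.04 and 7.44 in the oil thymocytes, 7.84 and 7.04 in the TCDD thymocytes, 5.45 and 6.57 in the oil emigrants, and 6.21 and 5.54 in the TCDD emigrants. No emigrant array reached a thymocyte array, and the difference was -1.73 under oil (3.32-fold lower, SE 0.48, limma adjusted p = 0.323) and -1.56 under TCDD (2.96-fold lower, SE 0.48, adjusted p = 0.465). Under oil it was -1.17 and -2.29 without emigrants oil 1 and oil 2 in turn. Cyclin A2 (Ccna2), which acts in S phase and at mitotic entry, lay at 9.74 and 8.68 in the oil thymocytes, 9.49 and 8.11 in the TCDD thymocytes, 7.86 and 8.65 in the oil emigrants, and 8.34 and 7.65 in the TCDD emigrants. Its groups overlapped under TCDD, and its differences were -0.96 (-0.56 and -1.35 without emigrants oil 1 and oil 2 in turn) and -0.80 (SE 0.59 for each). The Polo-like kinase Plk1, which matures centrosomes, lay at 7.62 and 6.92 in the oil thymocytes, 6.76 and 6.32 in the TCDD thymocytes, 5.17 and 6.45 in the oil emigrants, and 5.89 and 6.13 in the TCDD emigrants. The emigrants oil 2 array was above the second TCDD thymocyte array, and the difference was -1.46 under oil (SE 0.45, adjusted p = 0.364; -0.82 and -2.10 without emigrants oil 1 and oil 2 in turn) but -0.53 under TCDD. Aurora A (Aurka), a kinase of the spindle poles, lay at 6.43 and 7.14 in the oil thymocytes, 6.04 and 6.20 in the TCDD thymocytes, 5.45 and 6.41 in the oil emigrants, and 6.00 and 5.91 in the TCDD emigrants. It was lower without overlap under both treatments, with -0.85 under oil (-0.37 and -1.33 without emigrants oil 1 and oil 2 in turn) and -0.17 under TCDD (SE 0.36), and the latter was smaller than its error. Nek2, a centrosome kinase, had differences of -0.51 and -0.15, the former 0.05 without emigrants oil 1.

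Of the spindle checkpoint genes 4 of 5 had a lower mean in emigrants under oil and 5 of 5 under TCDD, with medians of -1.14 (-0.55 and -1.36 without emigrants oil 1 and oil 2 in turn) and -0.65. Mad2 (Mad2l1), the inhibitor of Cdc20, lay at 8.88 and 9.16 in the oil thymocytes, 8.94 and 9.08 in the TCDD thymocytes, 7.27 and 8.47 in the oil emigrants, and 7.99 and 7.69 in the TCDD emigrants. All thymocyte arrays stood above all emigrant arrays, and the difference was -1.15 under oil and -1.17 under TCDD (SE 0.38, limma adjusted p = 0.401 and 0.491). Under oil it was -0.55 and -1.75 without emigrants oil 1 and oil 2 in turn. BubR1 (Bub1b), its partner in the checkpoint complex, showed the same order of arrays, with -1.14 (SE 0.32, limma adjusted p = 0.326) and -0.65. The former was -0.92 and -1.36 without emigrants oil 1 and oil 2 in turn and -0.71 without thymocytes oil 1. Bub3, which docks the Bub kinases at kinetochores, lay at 10.16 and 10.83 in the oil thymocytes, 10.13 and 10.68 in the TCDD thymocytes, 10.08 and 10.23 in the oil emigrants, and 10.22 and 10.33 in the TCDD emigrants. It overlapped under both treatments, with -0.34 (-0.27 and -0.42 without emigrants oil 1 and oil 2 in turn) and -0.14. Bub1, a kinetochore kinase, lay at 8.35 and 5.72 in the oil thymocytes, 7.74 and 5.84 in the TCDD thymocytes, 5.43 and 6.34 in the oil emigrants, and 5.72 and 5.22 in the TCDD emigrants. The spread within the thymocyte groups exceeded the difference between sources, so that the SE was 0.97 for differences of -1.15 (-0.69 and -1.60 without emigrants oil 1 and oil 2 in turn) and -1.32. Ttk, the checkpoint kinase Mps1, had 0.08 (0.68 and -0.52 without emigrants oil 1 and oil 2 in turn) and -0.05.

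The partners of the anaphase-promoting complex both had a lower mean in emigrants under both treatments, and the median of the 2 under oil, -1.39, was the lowest of the 8 roles. Cdc20 lay at 8.99 and 8.15 in the oil thymocytes, 8.41 and 8.04 in the TCDD thymocytes, 6.45 and 7.80 in the oil emigrants, and 7.01 and 7.23 in the TCDD emigrants. The difference was -1.44 under oil (2.72-fold lower, SE 0.48, limma adjusted p = 0.402; -0.77 and -2.12 without emigrants oil 1 and oil 2 in turn) and -1.11 under TCDD. Ube2c, the ubiquitin-conjugating enzyme of the complex, lay at 7.34 and 7.56 in the oil thymocytes, 7.12 and 7.18 in the TCDD thymocytes, 5.57 and 6.66 in the oil emigrants, and 6.44 and 6.08 in the TCDD emigrants. The difference was -1.33 under oil (SE 0.35, limma adjusted p = 0.311; -0.79 and -1.88 without emigrants oil 1 and oil 2 in turn) and -0.88 under TCDD, and for both genes every thymocyte array exceeded every emigrant array. A list of 12 genes, of core subunits of the complex, which are present throughout the cycle, and its other activator Fzr1, had smaller medians, of -0.23 and -0.20. Of these, 10 had a lower mean in emigrants under oil (83.3%, against 49.6% of all genes) and 9 under TCDD (75%, against 42.8%).

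Aurora B (Aurkb), the kinase of the chromosomal passenger complex, had the smallest p of the 39 in both comparisons. It lay at 7.90 and 8.14 in the oil thymocytes, 7.34 and 7.27 in the TCDD thymocytes, 6.17 and 7.14 in the oil emigrants, and 6.31 and 5.85 in the TCDD emigrants. Emigrants oil 2, the highest of the emigrant arrays, came close to the TCDD thymocyte arrays without reaching them. The difference was -1.37 under oil (2.58-fold lower, SE 0.33, limma adjusted p = 0.286) and -1.23 under TCDD (2.34-fold lower, adjusted p = 0.416). Under oil it was -0.88 and -1.85 without emigrants oil 1 and oil 2 in turn. A dimmer Aurkb probe set had -1.43 and -1.08. Survivin (Birc5), its partner, lay at 7.32 and 8.05 in the oil thymocytes, 7.38 and 7.48 in the TCDD thymocytes, 6.22 and 7.92 in the oil emigrants, and 6.60 and 7.05 in the TCDD emigrants. Emigrants oil 2 was near the highest thymocyte array here, and the differences were -0.62 (0.23 and -1.47 without emigrants oil 1 and oil 2 in turn) and -0.61 (SE 0.55).

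The 3 centromere and kinetochore genes differed little between the sources, with medians of -0.14 under oil (0.30 and -0.58 without emigrants oil 1 and oil 2 in turn) and -0.26 under TCDD. Cenpa, the histone H3 variant that marks the centromere, lay at 7.79 and 7.93 in the oil thymocytes, 7.34 and 7.85 in the TCDD thymocytes, 7.28 and 8.16 in the oil emigrants, and 7.56 and 7.66 in the TCDD emigrants. The highest level was that of emigrants oil 2, and the differences were -0.14 (0.30 and -0.58 without emigrants oil 1 and oil 2 in turn) and 0.02 (SE 0.31). Cenpf, a kinetochore and matrix protein, lay at 8.60 and 6.74 in the oil thymocytes, 8.67 and 7.20 in the TCDD thymocytes, 6.82 and 8.23 in the oil emigrants, and 7.61 and 7.74 in the TCDD emigrants. It too overlapped, with -0.14 (0.56 and -0.85 without emigrants oil 1 and oil 2 in turn) and -0.26 (SE 0.78). Cenpe, a kinetochore motor that was below the array median throughout, lay at 3.70 and 3.39 in the oil thymocytes, 3.22 and 4.50 in the TCDD thymocytes, 4.01 and 3.54 in the oil emigrants, and 3.99 and 2.89 in the TCDD emigrants. Its differences were 0.23 (-7e-04 and 0.47 without emigrants oil 1 and oil 2 in turn) and -0.42.

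The chromosome structure genes had medians of -0.68 under oil (5 of 7 lower) and -0.66 under TCDD (7 of 7 lower), with wide spread inside the groups. The median under oil was -0.20 and -1.16 without emigrants oil 1 and oil 2 in turn. Topoisomerase II alpha (Top2a), which untangles sister chromatids, lay at 11.09 and 9.94 in the oil thymocytes, 10.81 and 9.99 in the TCDD thymocytes, 8.84 and 10.03 in the oil emigrants, and 9.30 and 9.66 in the TCDD emigrants. Its difference was -1.08 under oil (-0.48 and -1.67 without emigrants oil 1 and oil 2 in turn), where emigrants oil 2 lay above thymocytes oil 2, and -0.92 under TCDD, without overlap (SE 0.54 for both). Smc4, an ATPase of condensin, lay at 11.35 and 9.80 in the oil thymocytes, 11.44 and 10.72 in the TCDD thymocytes, 11.62 and 10.53 in the oil emigrants, and 11.27 and 9.68 in the TCDD emigrants. Its difference was 0.50 under oil (-0.04 and 1.04 without emigrants oil 1 and oil 2 in turn) and -0.60 under TCDD (SE 0.73). Emigrants oil 1 had the highest Smc4 level of the 8 arrays, whereas it had the lowest level of 23 of the 39 genes. Ki-67 (Mki67), the proliferation marker that coats mitotic chromosomes, lay at 10.40 and 7.73 in the oil thymocytes, 10.41 and 8.37 in the TCDD thymocytes, 8.50 and 9.27 in the oil emigrants, and 9.29 and 8.45 in the TCDD emigrants. The thymocyte arrays numbered 1 lay above all others and thymocytes oil 2 below all others, and the differences were -0.18 (0.20 and -0.56 without emigrants oil 1 and oil 2 in turn) and -0.52 (SE 1.00). The other condensin genes, Smc2, Ncapd2, Ncapg2 and Ncaph, ranged from -1.26 to 0.13 under oil (-0.66 to 1.05 without emigrants oil 1, and -1.87 to -0.79 without emigrants oil 2) and from -1.50 to -0.53 under TCDD.

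All 8 spindle and motor genes had a lower mean in emigrants under oil (median -0.64, and -0.22 and -1.02 without emigrants oil 1 and oil 2 in turn) and 7 of 8 under TCDD (median -0.30). Stathmin (Stmn1), which destabilizes microtubules, lay at 12.46 and 12.47 in the oil thymocytes, 12.37 and 12.38 in the TCDD thymocytes, 11.35 and 12.11 in the oil emigrants, and 11.48 and 11.94 in the TCDD emigrants. Its 4 thymocyte values lay close together and above every emigrant value, with differences of -0.74 (1.67-fold lower, SE 0.28, limma adjusted p = 0.464; -0.36 and -1.12 without emigrants oil 1 and oil 2 in turn) and -0.67. Kif22, a motor on chromosome arms, lay at 10.07 and 8.95 in the oil thymocytes, 9.75 and 8.75 in the TCDD thymocytes, 8.54 and 9.14 in the oil emigrants, and 8.66 and 9.11 in the TCDD emigrants. Nusap1, which bundles spindle microtubules, lay at 8.58 and 8.18 in the oil thymocytes, 8.72 and 7.64 in the TCDD thymocytes, 7.31 and 8.25 in the oil emigrants, and 7.53 and 7.66 in the TCDD emigrants. Both overlapped under both treatments, Kif22 with -0.67 and -0.37 and Nusap1 with -0.60 and -0.58. Under oil Kif22 was -0.38 and -0.97, and Nusap1 -0.13 and -1.07, without emigrants oil 1 and oil 2 in turn. Hmmr, a spindle pole protein, lay at 8.46 and 6.86 in the oil thymocytes, 8.14 and 6.84 in the TCDD thymocytes, 6.83 and 7.76 in the oil emigrants, and 7.55 and 7.43 in the TCDD emigrants. Its difference was -0.37 under oil (0.10 and -0.83 without emigrants oil 1 and oil 2 in turn) and 0.0004 under TCDD (SE 0.65). Kif11, Kif2c, Kif4 and Tpx2 ranged from -1.03 to -0.24 under oil (-0.37 to 0.19 without emigrants oil 1, and -1.70 to -0.28 without emigrants oil 2) and from -0.56 to -0.08 under TCDD.

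The 6 cytokinesis genes had a lower mean in emigrants under both treatments, with medians of -0.49 (-0.16 and -0.89 without emigrants oil 1 and oil 2 in turn) and -0.47. Ect2, which activates RhoA at the cleavage site, lay at 8.58 and 6.67 in the oil thymocytes, 8.52 and 6.94 in the TCDD thymocytes, 5.83 and 6.35 in the oil emigrants, and 6.22 and 5.06 in the TCDD emigrants. All thymocyte arrays were above all emigrant arrays, yet the thymocyte arrays numbered 1 exceeded those numbered 2 by 1.58 or more. The difference was -1.53 under oil (-1.27 and -1.79 without emigrants oil 1 and oil 2 in turn) and -2.09 under TCDD (4.25-fold lower, SE 0.79, limma adjusted p = 0.574). The latter was -1.30 without thymocytes TCDD 1. Prc1, which bundles the midzone of the spindle, lay at 8.03 and 7.40 in the oil thymocytes, 7.65 and 7.06 in the TCDD thymocytes, 7.07 and 7.73 in the oil emigrants, and 7.45 and 7.00 in the TCDD emigrants. Racgap1, of the centralspindlin complex, lay at 6.43 and 6.08 in the oil thymocytes, 6.12 and 5.50 in the TCDD thymocytes, 5.47 and 6.14 in the oil emigrants, and 5.60 and 5.74 in the TCDD emigrants. Both overlapped, Prc1 with -0.32 and -0.13 and Racgap1 with -0.45 and -0.14. Under oil Prc1 was 0.02 and -0.65, and Racgap1 -0.12 and -0.79, without emigrants oil 1 and oil 2 in turn. Kif23, Kif20a and Anln ranged from -0.79 to -0.32 under both treatments, and under oil from -0.48 to 0.27 without emigrants oil 1 and from -1.09 to -0.85 without emigrants oil 2.

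The size of the difference between sources depended on single arrays. Under oil the median over the 39 genes was -0.27 without emigrants oil 1 (28 lower) and -1.12 without emigrants oil 2 (37 lower). It was -0.40 without thymocytes oil 1 (27 lower) and -1.17 without thymocytes oil 2 (38 lower). Under TCDD the median was -0.25 without thymocytes TCDD 1 (27 lower) and -0.87 without thymocytes TCDD 2. The median kept its sign in all of these.

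**Figure D4:**
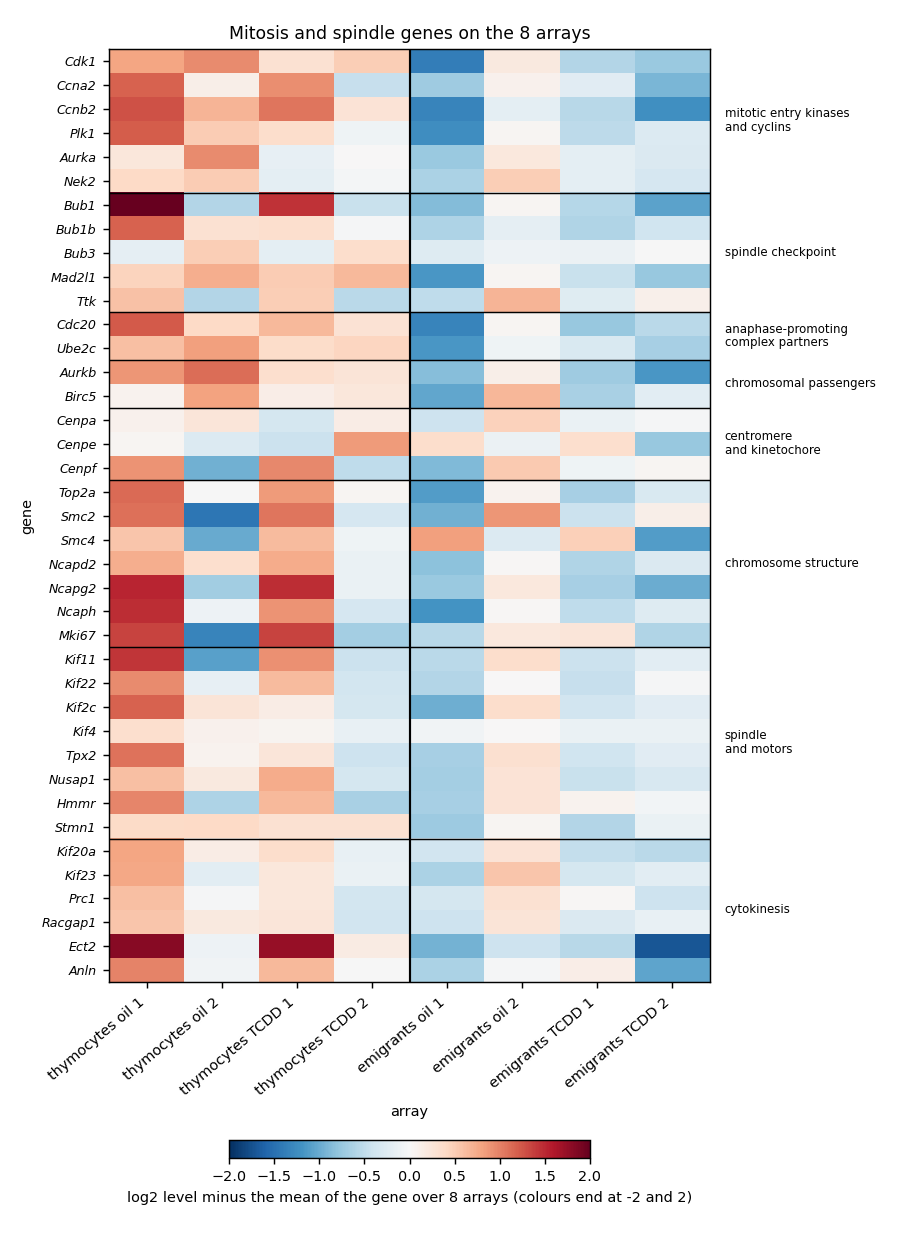
Log2 level of each of the 39 genes on each array minus the mean of the gene over the 8 arrays, with genes in rows by role and arrays in columns, thymocytes left and emigrants right of the black line. Red cells gather on the thymocyte arrays, most on thymocytes oil 1, which had the highest level of 22 genes, and blue cells on 3 of the emigrant arrays. Emigrants oil 2 is mostly pale red, with 31 genes above their mean, against 2 on emigrants oil 1, 6 on emigrants TCDD 1 and 3 on emigrants TCDD 2.

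The second comparison asked how TCDD bears on the mitotic genes of thymocytes. Under TCDD 31 of 39 had a lower mean (79.5%, against 51.4% of all genes), with a median difference of -0.25 and -0.01 over all genes. None passed the limma test at an adjusted p of 0.05 (0% of all genes did), and none had an unadjusted limma p under 0.05, against 194 of all genes (1.57%, of which 0.629% lower and 0.936% higher). Both TCDD arrays lay below both oil arrays for 9 genes (23.1%, against 11.4% of all genes), namely Cdk1, Plk1, Aurka, Nek2, Ube2c, Aurkb, Kif2c, Kif4 and Stmn1, and none lay above without overlap, against 9.78% of all genes.

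By role, the entry kinases and cyclins were lower in all 6, with a median of -0.51. Aurora B had the smallest p, with a difference of -0.71 (1.64-fold lower, SE 0.33, limma adjusted p = 1). Aurora A differed by -0.66 (SE 0.36; -1.02 without thymocytes oil 1 and -0.31 without thymocytes oil 2), Plk1 by -0.73 (SE 0.45; -0.38 without thymocytes oil 1) and Cdk1 by -0.46 (SE 0.46). In all 4 of these kinases the highest TCDD value was below the lowest oil value. The microtubule depolymerase Kif2c (MCAK), at 8.08 and 7.16 in the oil arrays and 7.04 and 6.55 in the TCDD arrays, differed by -0.83 (SE 0.49; -0.37 without thymocytes oil 1), while the next brightest probe set of Kif2c differed by -0.09 and was higher in emigrants than in thymocytes. The chromosome structure genes had a median of 0.25, with Smc4 at 0.50 and Smc2, the other condensin ATPase, at 0.55 (SE 0.73 and 0.99), and the centromere genes a median of 0.27, with Cenpe at 0.32. The differences of Smc4 and Cenpe turned negative when 1 array was left out, to -0.27 without thymocytes oil 2 for Smc4 and to -0.32 without thymocytes TCDD 2 for Cenpe. Smc2, at 8.50 and 5.96 in the oil arrays and 8.48 and 7.07 in the TCDD arrays, also turned negative without thymocytes oil 2. So did Ncapg2 and Mki67, the other chromosome structure genes with a higher mean under TCDD.

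Leaving out single arrays moved the median in thymocytes from -0.00 (without thymocytes oil 1, 21 lower) to -0.67 (without thymocytes oil 2, 35 lower). It was -0.58 without thymocytes TCDD 1 (35 lower) and -0.06 without thymocytes TCDD 2 (21 lower). Between arrays of the same number, which the labels do not call pairs, TCDD was lower than oil for both numbers in 22 genes (56.4%, against 28.9% of all genes) and higher for both in 3, Cenpf, Smc4 and Mki67 (7.69%, against 25.7%). It was lower for number 1 alone in 10 genes (25.6%, against 19.9%) and for number 2 alone in 4 (10.3%, against 25.4%).

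In emigrants, 29 of the 39 genes had a lower mean under TCDD (74.4%, against 44.4% of all genes), with a median difference of -0.12 and 0.03 over all genes. No gene passed the limma test at an adjusted p of 0.05 (0% of all genes), and none of the 39 had an unadjusted limma p under 0.05, against 146 of all genes (1.18%, of which 0.637% lower and 0.541% higher). Only Kif20a and Kif4 lay below without overlap (5.13%, against 10.1% of all genes), and none lay above, against 14.6% of all genes. Aurora B again had the smallest p, with -0.57 (SE 0.33, limma adjusted p = 1; -1.05 and -0.09 without emigrants oil 1 and oil 2 in turn). Kif20a, a midzone motor below the array median, lay at 4.80 and 4.17 in the oil thymocytes, 4.37 and 3.87 in the TCDD thymocytes, 3.63 and 4.29 in the oil emigrants, and 3.54 and 3.48 in the TCDD emigrants. Its difference was -0.45 (SE 0.32; -0.78 and -0.12 without emigrants oil 1 and oil 2 in turn). On the positive side Plk1, at 0.20 (-0.44 and 0.84), and Bub3, at 0.12 (0.05 and 0.19), came first by p. Kif4, a motor on chromosomes, differed by -0.10.

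This average hides an opposite order in the arrays of each number. TCDD was above oil between the emigrant arrays numbered 1 and below oil between those numbered 2 for 34 of the 39 genes (87.2%, against 19.7% of all genes), and the reverse order was found for none (0%, against 31.3%). The median difference was 0.38 for number 1 and -0.58 for number 2. Cdk1 was 0.79 higher between the arrays numbered 1 and 0.93 lower between those numbered 2. Among the 4 emigrant arrays oil 2 had the highest level of 34 genes and oil 1 the lowest level of 27, so both TCDD arrays lay mostly between the oil arrays. Without emigrants oil 1 the median difference was -0.56 with 38 genes lower, and without emigrants oil 2 it was 0.36 with 7 lower. With emigrants oil 1 counted as a TCDD array, as its Treatment field reads, the median was -0.72 with 37 lower. Without emigrants oil 1, or by that field, Plk1 turned to -0.44 and -0.72, and the sign of the median difference turned with the oil array that was left out.

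**Figure D5:**
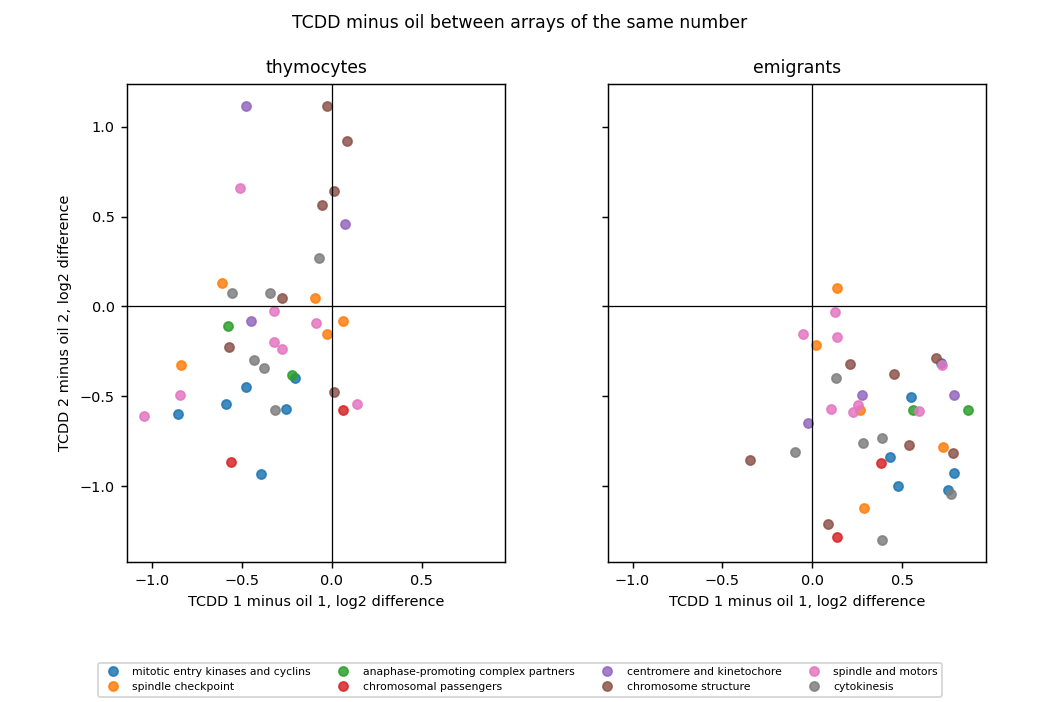
TCDD minus oil on the log2 scale between the arrays numbered 1 (horizontal) and between those numbered 2 (vertical), 1 point a gene, coloured by role, for thymocytes (left) and emigrants (right). In thymocytes 22 of 39 genes lie in the lower left, below 0 for both numbers, and in emigrants 34 lie in the lower right, above 0 for number 1 and below 0 for number 2.

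The TCDD difference in emigrants minus that in thymocytes had a median of 0.15 over the 39 genes, with 26 above 0 (66.7%, against 56.7% of all genes). None passed the limma test, adjusted or not, against 146 of all genes (1.18%, of which 0.29% above 0 and 0.888% below) at an unadjusted p under 0.05. The smallest p were those of Plk1 (0.93, SE 0.64, limma adjusted p = 1) and Aurka (0.69, SE 0.51) above 0 and of Smc4 (-1.10, SE 1.04) and Cenpe (-0.66) below. The median ran from -0.34 without emigrants oil 1 (31 genes below 0) to 0.60 without emigrants oil 2 (4 below 0), and it was -0.13 and 0.47 without thymocytes oil 1 and oil 2 and 0.42 and -0.11 without thymocytes TCDD 1 and TCDD 2.

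The gap between the arrays of a group was a large part of the variation of these genes and differed by role. In the oil thymocytes array 1 exceeded array 2 for 29 of 39 genes (47.8% of all genes), with a median gap of 0.83, and for 16 genes the gap was over 1 on the log2 scale in either direction (7.83% of all genes). In the TCDD thymocytes the median gap was 0.62, and 13 genes had a gap over 1 (5.03% of all genes). The gap was widest in the chromosome structure genes, at 1.58 and 1.24, by the median of signed gaps. The entry kinases and cyclins went both ways (median 0.25 and 0.15), with Ccna2 at 1.07 and 1.38, Ccnb2 at 0.60 and 0.80, Plk1 at 0.70 and 0.44 and Aurka at -0.71 and -0.17. The chromosomal passengers had -0.49 and -0.01, and the centromere genes 0.31 and -0.51. In the oil emigrants array 1 was below array 2 for 37 genes (45.9% of all genes), with a median gap of -0.94 and 16 over 1 in size (5.62%). In the TCDD emigrants the median gap was -0.11, and 4 genes had a gap over 1 (6.09%).

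Where a gene had a further probe set above the array medians, its gap in the oil thymocytes had the same sign in 11 of 15 cases. It had the same sign in 12 of 15 in the TCDD thymocytes, 14 of 15 in the oil emigrants and 8 of 15 in the TCDD emigrants. Cyclin A2 is an exception of similar brightness: its 2 probe sets, at means of 8.56 and 8.34, had gaps of 1.07 and -0.94 in the oil thymocytes. For Kif11, the motor that pushes the spindle poles apart, the gap was 2.52 in the chosen probe set and 0.37 in another. Differences between groups had the same sign in the further probe set in 13 of 15 cases for TCDD in thymocytes and 10 of 15 for TCDD in emigrants. For emigrants against thymocytes they had it in 14 of 15 under oil and 11 of 15 under TCDD.

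Other measures moved with the gaps in thymocytes, and their part in the results was not tested. The array's control probes of actin, at the 3′ end over the 5′ end, gave log2 differences of 4.12 and 3.12 in the oil thymocytes and 4.31 and 3.06 in the TCDD thymocytes. Those of Gapdh gave 6.23 and 4.97, and 5.90 and 4.78, so that the 3′ excess was larger on the thymocyte arrays numbered 1 for both controls. In emigrants the controls differed: actin gave 3.92 and 3.34 under oil and 4.68 and 3.79 under TCDD, higher on array 1. Gapdh gave 4.81 and 4.91, and 4.97 and 5.32, lower on array 1, the same direction as the median mitotic gaps. The 12 granulocyte markers summed, on the linear scale, to 3663 and 2340 in the oil thymocytes and 3933 and 1223 in the TCDD thymocytes. In emigrants they summed to 1189 and 934 under oil and 6728 and 690 under TCDD. All 12 were above the array median on emigrants TCDD 1, as they were on thymocytes oil 1 and TCDD 1. On array 1 of the oil emigrants the mitotic genes and the Gapdh excess were thus lower, and the actin excess and granulocyte sum higher. S100a8, at 8.58 and 7.29, weighed most in the gap of that sum, while Ngp, Camp, Ltf, Elane and Ctsg were lower on array 1. The granulocyte sums of the TCDD emigrants differed widely while the median mitotic gap was -0.11. The 4 double-positive thymocyte markers (Cd4, Cd8a, Cd8b1 and Cd1d1) went the other way in thymocytes, with sums of 195 and 747 under oil and 306 and 647 under TCDD. Cd1d1 lay at 6.89 and 9.17 in the oil thymocytes and 7.78 and 8.72 in the TCDD thymocytes. In emigrants the 4 summed to 499 and 312 under oil and 420 and 229 under TCDD. Cd1d1 had the highest value of the 4 on every array and weighed most in these sums. In emigrants it lay at 8.74 and 7.69 under oil and 8.13 and 6.52 under TCDD, and Cd8b1 was also higher on array 1 of both groups. Cd8a, at 4.57 and 5.84 and at 6.18 and 6.24, and Cd4, at 5.04 and 5.12 and at 5.06 and 5.31, were not.

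Markers of the sorted lineage and of other cells also differed between the sources, and their part in the lower emigrant levels was not tested. The 13 measured T cell and progenitor markers summed to 4855 to 5265 in the oil thymocytes and 5389 to 5509 in the TCDD thymocytes. In emigrants they summed to 3104 to 3516 under oil and 2109 to 2833 under TCDD. Cd3e itself was not lower there, and Il2ra, Ptcra and Notch1 were. The 6 measured macrophage markers summed to 608 to 955 in thymocytes and 1033 to 2375 in emigrants. Csf1r had the highest value of the 6 on every array and weighed most in these sums. By gene, none of the 6 had a lower mean in emigrants under either treatment (0%, against 49.6% and 42.8% of all genes). On emigrants oil 1, however, Cd68 (4.88) and Adgre1 (5.61) lay below all thymocyte arrays, and C1qa, C1qb and C1qc within their range. The 10 erythroid markers summed to 794.5 to 1457 in thymocytes and 1759 to 3014 in emigrants. Tfrc or Car2 had the highest value of the erythroid list on every array. The carbonic anhydrase Car1 lay at 7.88 and 8.61 on emigrants oil 1 and TCDD 1 but at 4.22 and 4.64 on oil 2 and TCDD 2. Hba-a1, a globin, lay at 4.53 to 4.74 on all arrays, below the array medians. Epor lay at 5.95 to 6.41 in thymocytes and 5.56 to 6.14 in emigrants. Of the 10, 2 had a lower mean in emigrants under oil (20%, against 49.6% of all genes) and 3 under TCDD (30%, against 42.8%). The 7 natural killer cell markers summed to 1994 to 5461 in thymocytes and 619 to 3735 in emigrants. Gzma, at 7.96 to 12.29, had the highest value of the list on every array and weighed most in these sums. By gene, 2 of the 7 had a lower mean in emigrants under each treatment (28.6%, against 49.6% and 42.8% of all genes). Klrd1 lay at 6.65 to 8.05 in thymocytes and 7.16 to 9.64 in emigrants, Tbx21 at 4.57 to 5.09 and 5.81 to 7.01, and Eomes at 4.84 to 5.62 and 5.22 to 8.22. The B cell list summed to 386 to 857 in thymocytes and 192 to 224 in emigrants, with Ms4a1 at 6.96 to 8.93 and Cd79b at 6.14 to 7.55 in thymocytes and at 4.57 to 5.36 and 4.89 to 5.69 in emigrants, while Pax5 and Cd79a were below the array median on all arrays. RMA levels do not reach 0, so no marker could be listed as absent.

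Other genes of the division cycle, from lists chosen with earlier results of these data known, were described in the same way. Of 43 measured further mitotic genes (58 listed), 33 had a lower mean in emigrants under oil and 32 under TCDD, with medians of -0.38 and -0.27. These are 76.7% and 74.4%, against 49.6% and 42.8% of all genes. Cdca3, a mitotic entry factor, differed by -0.98 (limma adjusted p = 0.283), and Tubb4b, a beta tubulin, by -1.13 under oil. The securin gene Pttg1, whose product holds separase in check, went the other way, at 0.70 under TCDD (limma adjusted p = 0.539), and is named here after its value was seen. In thymocytes 31 of these 43 had a lower mean under TCDD (72.1%, against 51.4% of all genes), with a median of -0.14. In emigrants 30 did (69.8%, against 44.4%), with a median of -0.11.

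The 23 measured S phase genes had a lower mean in emigrants under oil in 23 of 23 and under TCDD in 22, with medians of -0.95 and -0.79. These are 100% and 95.7%, against 49.6% and 42.8% of all genes. Rfc4, a subunit of the clamp loader, differed by -2.38 and -2.07 (SE 0.42, limma adjusted p = 0.184 and 0.345). In thymocytes all 23 had a lower mean under TCDD (median -0.47, against 51.4% of all genes lower), with Mcm5, of the replicative helicase, at -1.12 (SE 0.42, limma adjusted p = 1). In emigrants 17 of 23 did (73.9%, against 44.4% of all genes), with a median of -0.21. Their median levels by array were 8.37, 8.31, 8.39 and 7.28 in thymocytes oil 1, oil 2, TCDD 1 and TCDD 2. The oil thymocyte arrays thus had nearly the same S phase median, where those of the mitotic genes were 8.04 and 7.14. This did not hold in the TCDD thymocytes, where array 1 was higher in both, at 8.39 and 7.28 for S phase genes and 7.65 and 7.04 for mitotic genes. In emigrants oil 1, oil 2, TCDD 1 and TCDD 2 they were 6.34, 7.81, 6.92 and 6.66, with oil 2 the highest and oil 1 the lowest, as for the mitotic genes.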

How the data were processed

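The authors deposited log2 values for 22690 Affymetrix probe sets on 8 arrays, made with RMA per the submitters' processing notes, where no version is given. RMA forces all arrays to one distribution of values, which hides a change shared by most genes, and shrinks differences of probe sets near background. Platform annotation gave 1 symbol for 20393 of the probe sets, which were used with symbols brought up to date from RefSeq, and several or none for 691 and 1606, which were left out. The brightest probe set on average stood for each of 12394 genes, without a filter on dim genes. Groups followed the titles. Group means over all 8 arrays were compared with limma 3.58.1 (R 4.3.3; lmFit, eBayes; two-sided; 4 residual degrees of freedom), p-values were adjusted over all genes by Benjamini and Hochberg's method, and the threshold was 0.05. The procedure was tested on simulated data.

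Values in every array are given for the 3 genes of highest mean in each role and the 2 of smallest p in each direction of each comparison, and the others by ranges and counts. Of each further list of cycle genes the 2 of smallest p could be named, and any marker. The genes, the lists and these rules were chosen with earlier results of these data known. Counts of genes without overlap compare arrays directly and are descriptions. Promoter letters were counted in RefSeq windows with Python 3.11.15. Alternatives were another normalization or centring, all probe sets of a gene averaged, a filter on dim genes, other eBayes settings, only the 4 arrays compared, the replicate number as a block, grouping by the Treatment field, and each array left out.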

Additional observations from a re-analysis of the deposited data

How the results depend on the processing

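None of the 39 genes passed the threshold in any comparison as reported. Of 621 values of named genes under alternatives 597 kept their direction and their side of the threshold. Part of this count was fixed in advance. Leaving out an array that a comparison does not use leaves its difference unchanged. Smc4 for TCDD in thymocytes, for example, stayed at 0.50 without any 1 emigrant array. The replicate blocks, the eBayes settings and the fit of only 4 arrays also leave differences unchanged, so only the side of the threshold could move. Replicate numbers are shared by all groups, with no pairing stated. With 1 replicate block over all groups, 0 of the 39 passed in each comparison. With the replicate number nested in each cell source, 1 gene of the array passed for TCDD in thymocytes, 819 for emigrants against thymocytes under oil, 6 of them among the 39 (Bub1b, Plk1, Stmn1, Kif22, Cdc20 and Ncaph), and 462 under TCDD, with none of the 39. Between sources that replicate block takes the spread between arrays of one source out of the error. Deviations of same-numbered arrays correlated at 0.759 in thymocytes and 0.495 in emigrants and at -0.097 to 0.109 across sources.

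With emigrants oil 1 counted as TCDD by its Treatment field, the TCDD median in emigrants moved to -0.72 (Plk1 -0.72, Bub3 -0.017) with 1 gene of the array past the threshold. Under oil 3 genes of the array then passed between sources, and under TCDD 18. Smc4 and Cenpe under oil and Cenpa and Hmmr under TCDD were not among these, but their differences turned negative. They were -0.042 for Smc4, -7e-04 for Cenpe, -0.092 for Cenpa and -0.22 for Hmmr. In the difference of TCDD effects 1 gene passed and 34 of the 39 were below 0. Between sources 1 gene passed under oil with probe sets averaged, and under TCDD 2 with quantile normalization and 1 with trend and robust settings. Cenpa was -0.033 and Hmmr -0.051 under TCDD with arrays centred, Hmmr -0.15 with probe sets averaged, and Bub3 -0.099 for TCDD in emigrants with probe sets averaged.

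With 1 array left out in turn, the genes of the 39 that were lower under TCDD in emigrants numbered 7 to 38, and those below 0 in the difference of TCDD effects 4 to 31. Genes of the array past the threshold numbered 0 to 2 for TCDD in emigrants and 0 to 10 for emigrants against thymocytes under TCDD. For TCDD in thymocytes Smc4 ran from -0.27 to 1.28 and Cenpe from -0.32 to 0.96, and for TCDD in emigrants Plk1 from -0.44 to 0.84. Between sources under oil Smc4 ran from -0.28 to 1.28 and Cenpe from -7e-04 to 0.47, and under TCDD Cenpa from -0.24 to 0.27 and Hmmr from -0.65 to 0.65. The counts of genes with a lower mean were added to the alternatives after the data were seen. The fit of only 4 arrays was not run for the difference of TCDD effects, which needs all 8. The cause was not tested in any of these. Probe sets near background (Cenpe, Kif20a) and 2 arrays a group limit all values.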
